A study of Mus musculus with 4 samples.

Results

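This section describes 10 genes of the angiopoietin, vascular endothelial growth factor (VEGF) and apelin systems in 3 mouse medulloblastomas and 1 mouse cerebellum. The genes were chosen by symbol, as 6 ligands (Angpt1, Angpt2, Vegfa, Vegfc, Pgf and Apln) and 4 receptors (Tek, Tie1, Kdr and Flt1). All 10 were measured, each by 1 probe set, among 19938 named genes on Affymetrix Mouse Gene 1.0 ST arrays. The samples were whole cerebellum of a wild-type mouse at 2 months, medulloblastomas of Math1-Cre;SmoM2 mice at 1 and at 2 months, and a medulloblastoma of a PtchLacZ/+ mouse at 5 months, all of a mixed C57BL/6 and C3H background. In the Math1-Cre;SmoM2 mice an activated Smoothened is switched on in the Math1 lineage, which holds the granule neuron progenitors, and the PtchLacZ/+ mouse has lacZ in 1 copy of Ptch1, whose protein restrains Smoothened, so both tumour types arise with active Hedgehog signalling. Each sample was 1 array of total RNA from bulk tissue, the labels used here do not give the number of animals behind it, and in the comparison of PtchLacZ/+ with SmoM2 the driver cannot be told apart from age. The SmoM2 tumours at 1 and 2 months are also called the younger and the older one.

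VEGF ligands act on receptor kinases of the vessel wall. Vegfa signals mainly through Kdr (VEGFR2), while Flt1 (VEGFR1) binds Vegfa and Pgf and holds part of the Vegfa back from Kdr, and Vegfc acts mainly on Flt4 (VEGFR3). Angpt1, made by cells around the vessel, activates the endothelial receptor Tek (Tie2) and steadies vessels, whereas Angpt2, released by endothelial cells that are being remodelled, can block that signal, and Tie1 is the paired receptor without a clear ligand of its own. Apelin (Apln) is made by sprouting endothelial cells and acts on Aplnr.

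Promoter sequences are shown for the receptor pair Tie1 and Tek, whose levels parted in the 2-month SmoM2 tumour, and for Apln and Pgf, which were highest in that tumour. Each is the 250 bases before the RefSeq transcription start on build GRCm38.p6, written 5′ to 3′ on the gene's strand, with capitals marking every GGAA or TTCC, the core that ETS factors of endothelial cells read on either strand.
Tie1 (chr4:118489850-118490099, minus strand): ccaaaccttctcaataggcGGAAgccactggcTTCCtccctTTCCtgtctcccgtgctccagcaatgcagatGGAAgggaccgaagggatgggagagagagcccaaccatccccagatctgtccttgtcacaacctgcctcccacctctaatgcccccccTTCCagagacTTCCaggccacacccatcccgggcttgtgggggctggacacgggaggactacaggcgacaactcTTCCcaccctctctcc
Tek (chr4:94739039-94739288, plus strand): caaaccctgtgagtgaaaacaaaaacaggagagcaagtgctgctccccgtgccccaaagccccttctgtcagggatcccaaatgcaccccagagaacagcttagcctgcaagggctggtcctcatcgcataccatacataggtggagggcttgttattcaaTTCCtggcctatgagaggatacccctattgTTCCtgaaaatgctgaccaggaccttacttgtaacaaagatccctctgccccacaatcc
Apln (chrX:48034854-48035103, minus strand): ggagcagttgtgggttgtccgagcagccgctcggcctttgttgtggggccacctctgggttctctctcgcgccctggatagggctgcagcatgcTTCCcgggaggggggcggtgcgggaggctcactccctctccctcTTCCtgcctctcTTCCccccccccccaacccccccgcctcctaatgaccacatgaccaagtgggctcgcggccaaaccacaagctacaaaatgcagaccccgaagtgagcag
Pgf (chr12:85177314-85177563, minus strand, the outer of its RefSeq starts): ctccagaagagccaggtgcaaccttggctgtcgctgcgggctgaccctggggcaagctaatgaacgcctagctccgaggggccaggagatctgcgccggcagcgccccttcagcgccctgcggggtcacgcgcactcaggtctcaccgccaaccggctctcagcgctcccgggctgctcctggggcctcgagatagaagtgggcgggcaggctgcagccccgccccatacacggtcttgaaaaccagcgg

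The RefSeq promoter table matched 8 of the 10 genes, with 10 windows in all. Tie1 held 7 copies of the core, Tek 2, Apln 3 and Pgf none in either of its windows. The receptors Kdr and Flt1 each held 4. Over all 32851 promoter windows of this length, 93.4% held at least 1 copy, 3.82% held 7 or more and 45.3% held 2 or fewer. The hypoxia response core ACGTG, read on both strands, occurred in 1 of the 10 windows and in 16.6% of all windows. It lay before the inner Vegfa start, where it overlapped no GGAA or TTCC. That window is downstream of the outer Vegfa start and so inside the gene, and the window at the outer start held 0 copies. These matches describe letters in a short window and not factor binding.

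**Figure D1:**
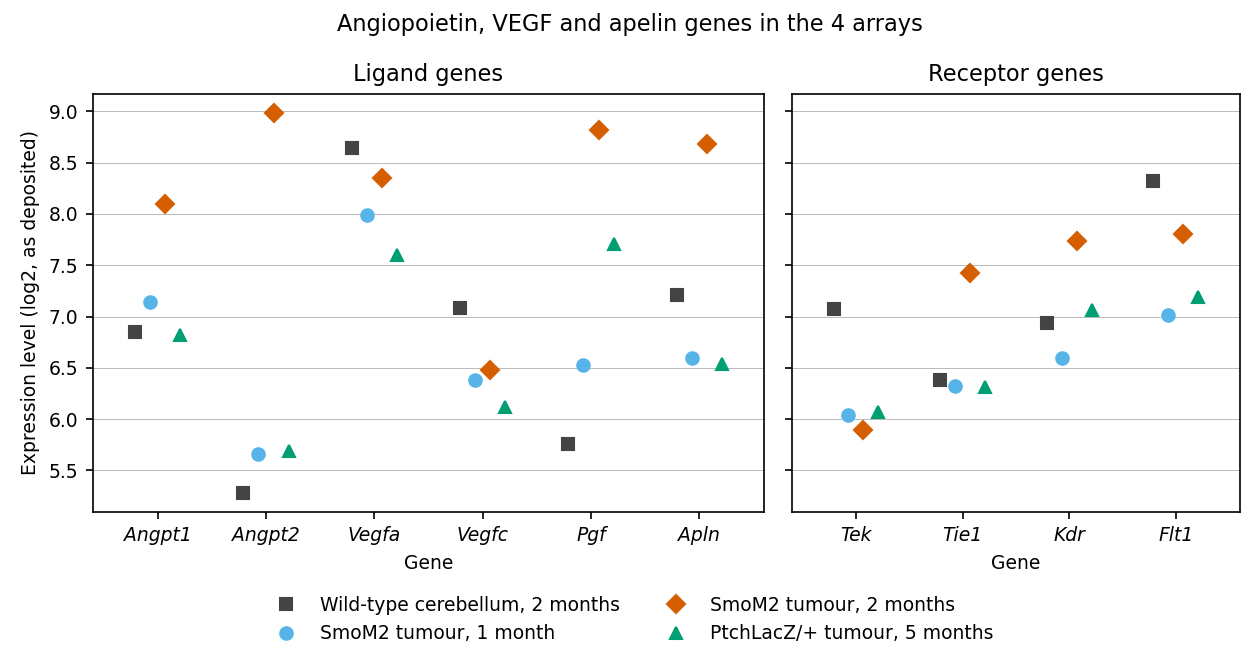
Expression level (log2, as deposited, vertical axis) of the 6 ligand genes and the 4 receptor genes (horizontal axis) in the wild-type cerebellum (square), the SmoM2 tumours at 1 month (circle) and 2 months (diamond) and the PtchLacZ/+ tumour (triangle), 1 array each. The 2-month SmoM2 tumour is the highest array for Angpt1, Angpt2, Pgf, Apln, Tie1 and Kdr, and Tek is lower in all 3 tumours than in the cerebellum; heights are to be compared within a gene and not between genes.

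In the tumours as a group the angiopoietin receptor Tek was lower than in the cerebellum, and the other 9 genes did not pass the test. Tek stood at 7.07 on the log2 scale in the cerebellum, 6.04 in the younger and 5.89 in the older SmoM2 tumour, and 6.07 in the PtchLacZ/+ tumour. The tumours lay within 0.18 of each other and did not overlap the cerebellum. Tek fell by 1.07 ± 0.18 (limma's standard error, 3 tumours against 1 cerebellum, adjusted p = 0.0203 by limma with Benjamini-Hochberg adjustment over all genes), which is 2.10-fold lower. Thus 1 of 10 members was called lower and 0 higher, beside 9.30% of all genes called lower, 6.70% called higher and 16.0% in either direction, and at an unadjusted p under 0.05 limma counted 3 members (Tek, Vegfc and Flt1) beside 29.7% of genes. All of the spread is that among tumours, which was taken to hold for the lone cerebellum too. Without the 1-month SmoM2 tumour the Tek adjusted p was 0.0566, without the PtchLacZ/+ tumour 0.0804 and in a fit with the 3 genotypes as groups 0.0732, with differences of -1.09, -1.11 and -1.05. Without the 1-month tumour 1 member was higher (Pgf) and 0 lower, beside 4.98% and 6.48% of genes, and without the PtchLacZ/+ tumour 0 were called, beside 3.15% higher and 4.70% lower. In bulk tissue, fewer cells of a type and less RNA per cell cannot be told apart.

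Tie1, the partner of Tek, did not pass the test. It stood at 6.38 in the cerebellum, 6.32 in the 1-month and 7.42 in the 2-month SmoM2 tumour, and 6.31 in the PtchLacZ/+ tumour. All but the 2-month tumour were within 0.07 of each other, and that tumour stood 1.04 above the nearest of them. The mean difference was 0.30 ± 0.49 (limma adjusted p = 0.771). Within each array, the Tie1 level minus the Tek level was larger than in the cerebellum by 0.97, 2.22 and 0.93 in the 1-month SmoM2, 2-month SmoM2 and PtchLacZ/+ tumours.

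The angiopoietin ligands did not pass the test, and both were highest in the older SmoM2 tumour. Angpt2 stood at 5.28 in the cerebellum, 5.66 in the 1-month SmoM2 tumour, 8.99 in the 2-month SmoM2 tumour and 5.69 in the PtchLacZ/+ tumour. The 2-month tumour was thus 9.86-fold above the next array, while the other tumours were 0.38 and 0.41 log2 above the cerebellum. With that spread the mean difference of 1.50 ± 1.41 did not pass (limma adjusted p = 0.578), and it was 0.40 without the 2-month tumour. Angpt1 stood at 6.85 in the cerebellum, 7.14 in the younger and 8.10 in the older SmoM2 tumour, and 6.82 in the PtchLacZ/+ tumour, a difference of 0.50 ± 0.51 (adjusted p = 0.613). For Angpt1 too the older SmoM2 tumour was the highest array. The Angpt2 level minus the Angpt1 level moved from the cerebellum by 0.09, 2.47 and 0.44 in the 1-month SmoM2, 2-month SmoM2 and PtchLacZ/+ tumours.

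Of the VEGF ligands, Vegfa and Vegfc lay below the cerebellum in every tumour and Pgf lay above it. Vegfa stood at 8.64 in the cerebellum, 7.99 in the younger and 8.35 in the older SmoM2 tumour, and 7.60 in the PtchLacZ/+ tumour, a difference of -0.66 ± 0.32 (limma adjusted p = 0.258). Vegfc, the lymphatic growth factor, stood at 7.08 in the cerebellum and at 6.38, 6.48 and 6.12 in the tumours in the same order, a difference of -0.75 ± 0.21 (limma adjusted p = 0.0810). For both genes the PtchLacZ/+ tumour was the lowest array and the cerebellum the highest. Pgf, the placental growth factor that binds Flt1, stood at 5.76 in the cerebellum, 6.53 in the younger and 8.82 in the older SmoM2 tumour, and 7.71 in the PtchLacZ/+ tumour. Its mean difference was the largest among the members, at 1.92 ± 0.85, but did not pass (limma adjusted p = 0.219), and without the 1-month tumour it was 2.50 ± 0.49 (adjusted p = 0.0407). Relative to Vegfa within the same array, Pgf moved from the cerebellum by 1.42, 3.35 and 2.99 in the 1-month SmoM2, 2-month SmoM2 and PtchLacZ/+ tumours.

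Neither VEGF receptor passed the test. Flt1 stood at 8.32 in the cerebellum, 7.01 in the younger and 7.80 in the older SmoM2 tumour, and 7.19 in the PtchLacZ/+ tumour, so that every tumour was lower, by 0.52 to 1.31, with a mean of -0.99 ± 0.34 (limma adjusted p = 0.133). Kdr stood at 6.94 in the cerebellum, 6.60 in the younger and 7.74 in the older SmoM2 tumour, and 7.06 in the PtchLacZ/+ tumour, a difference of 0.20 ± 0.45 (adjusted p = 0.843), with the cerebellum inside the range of the tumours. The Flt1 level minus the Kdr level was smaller in each tumour than in the cerebellum, with changes of -0.98, -1.32 and -1.26 in the 1-month SmoM2, 2-month SmoM2 and PtchLacZ/+ tumours.

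Apln stood at 7.21 in the cerebellum, 6.60 in the younger and 8.68 in the older SmoM2 tumour, and 6.54 in the PtchLacZ/+ tumour. The 2-month tumour was above and the other tumours were below the cerebellum, and the mean difference was 0.07 ± 0.91 (limma adjusted p = 0.979). Its receptor gene Aplnr varied little, from 5.90 in the cerebellum to 6.21 in the 2-month tumour.

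Among the members, all 3 tumours lay above the cerebellum for 2 genes (Angpt2 and Pgf) and below it for 4 (Vegfa, Vegfc, Tek and Flt1), beside 38.1% and 32.0% of all genes. Set by role, the median difference of the 6 ligands from the cerebellum was -0.16, 1.36 and -0.35 in the 1-month SmoM2, 2-month SmoM2 and PtchLacZ/+ tumours, and that of the 4 receptors was -0.68, 0.14 and -0.54. Over all genes these medians were 0.01, 0.07 and 0.03. Among the members the receptors thus had the lower median in each tumour, although ligands and receptors overlapped in range. For 4 other ligands and 8 other receptors and binding partners of these families, described below, the order was the other way. The 8 include Itgav, Itgb3, Thbd and Ptprb, and of the 4 ligands Apela is not shown to be above background. In the same tumour order the medians of those ligands were 0.07, 0.26 and 0.10. The medians of the receptors and binding partners were 0.16, 0.63 and 0.15. In the 2-month tumour 4 ligands were at least 1 log2 unit above the cerebellum (Angpt1, Angpt2, Pgf and Apln) beside 9.43% of all genes, and of the receptors Tie1 was above and Tek below by that margin. Of all genes 9.87% were lower there by that margin. In the 1-month tumour no member was higher by that margin, beside 6.81% of genes, and Tek and Flt1 were lower, beside 9.95%. In the PtchLacZ/+ tumour Pgf was higher by that margin, beside 7.91% of genes, and Vegfa, Tek and Flt1 were lower, beside 10.6%.

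The SmoM2 tumours were then set against each other by age, as 1 array each with no test. Age cannot be told apart here from other differences between the samples, among them the Xist and Y-linked levels given below. In 9 of the 10 members the 2-month tumour was higher than the 1-month tumour, and Tek, at -0.15, was the other one. A higher level at 2 months was seen for 59.8% of all genes. By at least 1 log2 unit, 5 members were higher at 2 months (Angpt2, Pgf, Apln, Kdr and Tie1) beside 1.66% of all genes, and no member was lower beside 2.05%. Angpt2 was 10.1-fold higher at 2 months and held rank 3 among the 19938 genes, behind Xist and the macrophage elastase gene Mmp12. Pgf was 4.89-fold higher (rank 12) and Apln 4.21-fold higher (rank 17). Kdr, Tie1 and Angpt1 were higher by 1.14, 1.10 and 0.95 on the log2 scale, and Flt1, Vegfa and Vegfc by 0.79, 0.36 and 0.10. In the 2-month tumour 4 members, Angpt2 (by 3.30), Apln (1.47), Pgf (1.11) and Tie1 (1.04), exceeded every other array by at least 1, as did 0.517% of all genes.

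**Figure D2:**
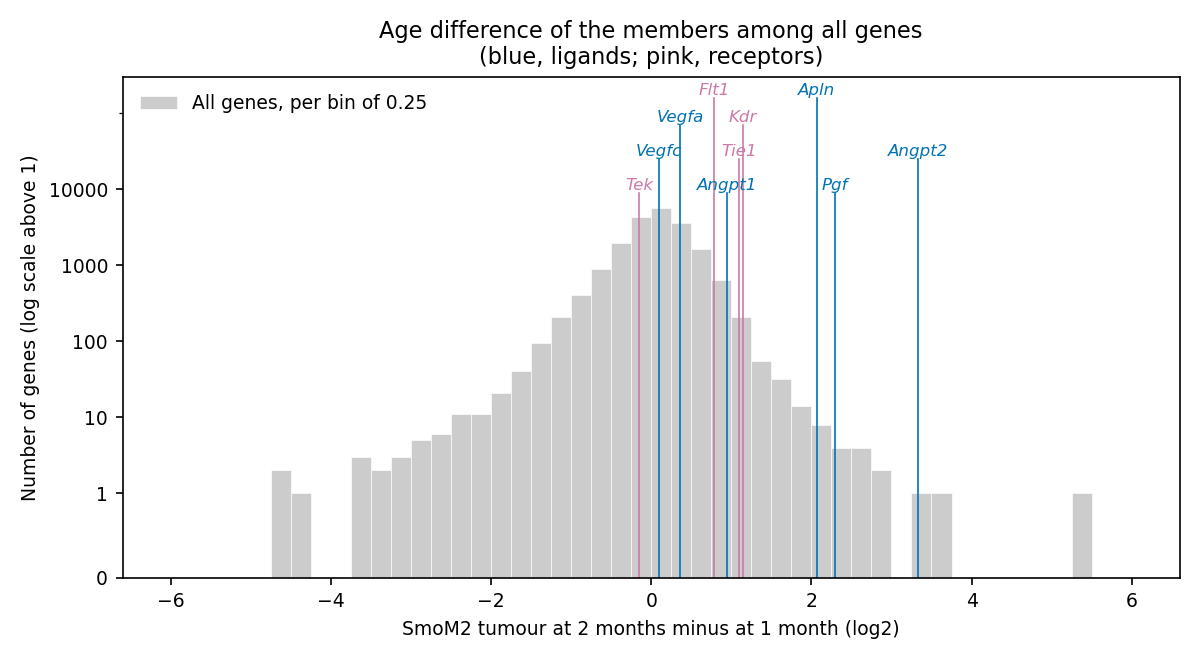
Number of genes (vertical axis, log scale above 1) by the difference between the SmoM2 tumours at 2 months and 1 month (horizontal axis, log2, grey bars), with a line for each ligand (blue) and receptor (pink). Angpt2 at 3.33, Pgf at 2.29 and Apln at 2.07 lie in the right tail, and Tek at -0.15 lies left of 0.

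The 2-month tumour stood apart in other measures too. Of 22 measured endothelial markers, 21 were highest in that array, beside 35.5% of all genes, and 12 of 15 mural cell markers were. The summed log2 level of the endothelial list was 150.8 in the cerebellum, 148.0 in the younger and 164.4 in the older SmoM2 tumour, and 148.7 in the PtchLacZ/+ tumour, and that of the mural list was 99.0, 95.9, 108.9 and 97.3. The endothelial junction genes Cldn5 and Cdh5 stood at 7.80 and 6.60 in the cerebellum and at 8.81 and 7.56 in the 2-month tumour (named after their values were seen). The X-linked Xist, expressed from an inactive X chromosome, stood at 9.50 in the 2-month tumour and between 4.16 and 4.91 in the other arrays. The Y-linked genes Eif2s3y, Kdm5d and Uty stood at 6.97 to 8.68 in the cerebellum and the 1-month tumour and at 3.48 to 4.09 in the 2-month and PtchLacZ/+ tumours. The labels used here give no sex, Apln itself lies on the X chromosome, and the part of these differences in the Angpt2, Pgf and Apln levels was not tested.

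Each member was therefore also related to the endothelial markers of its own sample, by subtracting the median level of the endothelial list in that array and comparing the remainder with that of the cerebellum. That median level was 6.66 in the cerebellum and 6.79, 7.45 and 6.72 in the 1-month SmoM2, 2-month SmoM2 and PtchLacZ/+ tumours, so at 1 month it lay above the cerebellum although the median of the markers' own differences was -0.14. Tek was then lower by 1.16, 1.98 and 1.06 in the 1-month SmoM2, 2-month SmoM2 and PtchLacZ/+ tumours, and Flt1 by 1.44, 1.32 and 1.19. Vegfa was lower by 0.78, 1.08 and 1.10, and Vegfc by 0.83, 1.39 and 1.02. Angpt2 was higher by 0.25, 2.92 and 0.35, and Pgf by 0.64, 2.26 and 1.89. In the 2-month tumour the remainder was 0.68 for Apln, 0.45 for Angpt1, 0.24 for Tie1 and 0.01 for Kdr. The 1-month and PtchLacZ/+ values depended on the summary of the list, given here for the list mean and the median of Pecam1, Cdh5, Cldn5 and Erg. At 1 month they were -0.52 and -0.30 for Vegfa, -0.57 and -0.35 for Vegfc, -0.90 and -0.68 for Tek, and -1.18 and -0.96 for Flt1. For Angpt2 they were 0.51 and 0.73, and for Pgf 0.90 and 1.12. In the PtchLacZ/+ tumour they were -0.95 and -0.79 for Vegfa, -0.87 and -0.71 for Vegfc, and -0.91 and -0.75 for Tek. There Flt1 was at -1.04 and -0.88, Kdr at 0.22 and 0.38, Angpt2 at 0.51 and 0.66, and Pgf at 2.04 and 2.20. In the 2-month tumour Kdr thus differed from the cerebellum by about as much as the endothelial median, and Angpt2 and Pgf by more.

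**Figure D3:**
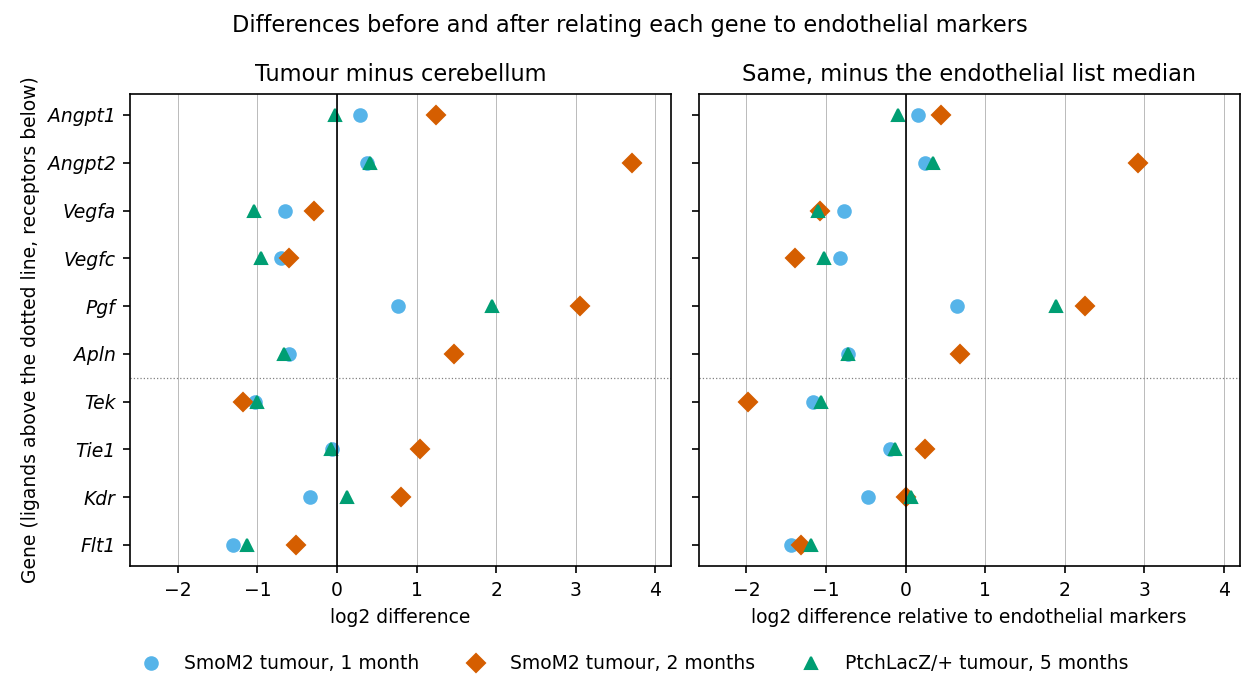
Difference of each tumour from the cerebellum (log2, horizontal axis, left) for the 10 genes (vertical axis) and the same difference after subtracting the median level of 22 endothelial markers in each array (right), for the SmoM2 tumours at 1 month (circle) and 2 months (diamond) and the PtchLacZ/+ tumour (triangle), 1 array each. After the subtraction Tek and Flt1 stay below 0 in all 3 tumours, Kdr of the 2-month tumour lies at 0.01 and its Angpt2 at 2.92.

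More members passed as lower without the 2-month tumour. In that fit the 1-month SmoM2 and PtchLacZ/+ tumours against the cerebellum gave 5 members lower, beside 16.7% of all genes, and 0 higher, beside 13.5% (limma with Benjamini-Hochberg adjustment, 1 residual degree of freedom). Those were Tek, Flt1 (-1.22 ± 0.17, adjusted p = 0.00458), Vegfc (-0.83 ± 0.18, adjusted p = 0.0210), Apln (-0.64 ± 0.15, adjusted p = 0.0295) and Vegfa (-0.85 ± 0.21, adjusted p = 0.0324). Apln, Tie1 and Kdr changed sign, to -0.64, -0.06 and -0.11.

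PtchLacZ/+ was set against the SmoM2 pair to ask whether the driver of the tumour went with a different vessel programme. No member passed, and 0 of 19938 genes did (limma adjusted p under 0.05, 1 residual degree of freedom), with 280 genes (1.40%) and 0 members at an unadjusted p under 0.05. Simulated arrays of this design took the spread of genes from all the tumours, which includes any difference between the drivers. On those arrays the test recovered 0 of 100 genes changed by 4 log2 units, so the count does not show that the tumours were alike. The members' differences ran from -1.63 ± 1.35 for Angpt2 to 0.10 ± 0.26 for Tek. Angpt2 in the PtchLacZ/+ tumour was 3.30 below the 2-month and 0.03 above the 1-month tumour, and Pgf was 1.11 below the former and 1.18 above the latter.

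Of the other ligands, receptors and binding partners of these families, 1 binding partner passed. No ligand passed, and none of the receptor genes Flt4, Nrp1, Nrp2 and Aplnr did. Among Vegfb, Vegfd, Angpt4 and Apela none of 4 passed, with differences of -0.34 ± 0.18, 0.55 ± 0.19, 0.37 ± 0.17 and -0.09 ± 0.24. Apela lay between 3.87 and 4.28 in all arrays, below the lower quartile of named genes (5.09 to 5.17), and is not shown to be above background. Of 8 further receptors and binding partners, the integrin subunit gene Itgav rose by 0.82 ± 0.18 (limma adjusted p = 0.0431), and none fell. That call was lost with arrays centred on their median, with only genes above the median level, with a trended prior, in the 3-group fit and without the 1-month or the PtchLacZ/+ tumour, and without the 2-month tumour 1 rose and 2 fell. The Vegfc receptor gene Flt4 stood at 5.25 in the cerebellum, 5.62 in the younger and 6.55 in the older SmoM2 tumour, and 5.92 in the PtchLacZ/+ tumour (0.78 ± 0.38, adjusted p = 0.267). The coreceptor gene Nrp1 stood at 6.53, 7.26, 7.90 and 7.01 in the same order (0.85 ± 0.37, adjusted p = 0.214), and Nrp2 differed by 0.28 ± 0.25, Aplnr by 0.22 ± 0.17 and Itgb3 by 0.01 ± 0.46. Ptprb, the phosphatase that opposes Tek, differed by -0.71 ± 0.22 (adjusted p = 0.106), and Thbd by -0.62 ± 0.20 (adjusted p = 0.105).

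Of 18 signal transduction genes of these receptors, 2 rose and 4 fell, with a median difference of 0.09. For this list and those that follow, the shares of all genes called at the main settings were 6.70% higher and 9.30% lower. List counts with a tumour left out are to be read beside the shares of that fit. These were 13.5% higher and 16.7% lower without the 2-month tumour, and 3.15% higher and 4.70% lower without the PtchLacZ/+ tumour. Akt1 and the phospholipase gene Plcg1 rose by 1.33 ± 0.21 and 1.24 ± 0.22, and the adaptor genes Grb7 and Nck1 and the kinase subunit gene Pik3r1 differed by -1.47 ± 0.18, -1.33 ± 0.16 and -1.23 ± 0.23 and passed as lower (limma adjusted p at most 0.0280 for these 5). These genes are used in many cell types besides endothelium. Without the PtchLacZ/+ tumour 0 rose and 1 fell.

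Of 20 genes known to respond in growing endothelium, 5 rose and 1 fell, with a median difference of 0.76 (all genes 0.04). The list's medians by tumour were 0.46, 1.55 and 0.44 in the 1-month SmoM2, 2-month SmoM2 and PtchLacZ/+ tumours, and without the 2-month tumour the median was 0.49, with 7 higher and 2 lower. The chemokine receptor gene Cxcr4 rose by 3.24 ± 0.40, the endothelial transcription factor gene Sox18 by 3.20 ± 0.53 and the Notch target gene Hey1 by 1.74 ± 0.26, and the netrin receptor gene Unc5b fell by 1.84 ± 0.18 (limma adjusted p at most 0.0199). The other genes that rose were the basement membrane collagen genes Col4a1 (1.56 ± 0.24) and Col4a2 (1.31 ± 0.30), named after their values were seen. Cxcr4 is a gene of granule neuron progenitors as well, and in which cells Sox18 rose was not tested. Pgf and Angpt2 are in this list too. Beside 35.5% of all genes, 13 of the 20 were highest of the 4 arrays in the 2-month tumour, Pgf and Angpt2 included. The sprouting-cell genes Esm1 and Dll4, singled out after their values were seen, were among them: Esm1 stood at 5.01 in the cerebellum, 4.97 in the younger and 7.03 in the older SmoM2 tumour, and 4.63 in the PtchLacZ/+ tumour, and Dll4 at 5.65, 6.36, 7.67 and 6.11. The Esm1 levels outside the 2-month tumour were below the lower quartile of named genes and are not shown to be above background.

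Of 20 genes in other signalling systems of vessels, none rose and 5 fell. The lipid receptor gene S1pr1 fell by 2.65 ± 0.37, Wnt7a, a ligand for brain vessels, fell by 2.61 ± 0.27 and the norrin gene Ndp fell by 1.41 ± 0.18 (limma adjusted p at most 0.0135), and the median difference was -0.19. S1pr1 and Ndp are also genes of astrocytes, of whose 10 markers 6 fell. Without the PtchLacZ/+ tumour 1 rose and 2 fell. Of 11 secreted factors that restrain vessel growth, Vash2 and Adamts1 rose by 1.48 ± 0.28 and 0.96 ± 0.18 and Sema3a fell by 1.46 ± 0.18 (limma adjusted p at most 0.0289). Without the PtchLacZ/+ tumour 0 of these rose and 1 fell.

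Of 20 hypoxia response genes, to which Vegfa belongs, none rose and 5 fell, and the list's median differences were -0.28, -0.11 and -0.51 for the 1-month SmoM2, 2-month SmoM2 and PtchLacZ/+ tumours. Bnip3 fell by 1.93 ± 0.27, the pyruvate dehydrogenase kinase gene Pdk1 fell by 1.78 ± 0.17 and Higd1a fell by 1.67 ± 0.24 (limma adjusted p at most 0.0143). Without the 2-month tumour 1 rose and 8 fell, beside 13.5% and 16.7% of all genes. Adm, the adrenomedullin gene and a hypoxia target made by endothelium, was singled out after its values were seen: it stood at 5.51 in the cerebellum, 5.95 in the younger and 7.32 in the older SmoM2 tumour, and 5.44 in the PtchLacZ/+ tumour. In the 2-month tumour 6 of the 20 genes were the highest of the 4 arrays, beside 35.5% of all genes. There 16 of the 20 were above the 1-month tumour, beside 59.8% of all genes, with a median difference of 0.36 (all genes 0.08). Above the PtchLacZ/+ tumour were 15 of the 20, beside 11810 of all 19938 genes.

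**Figure D4:**
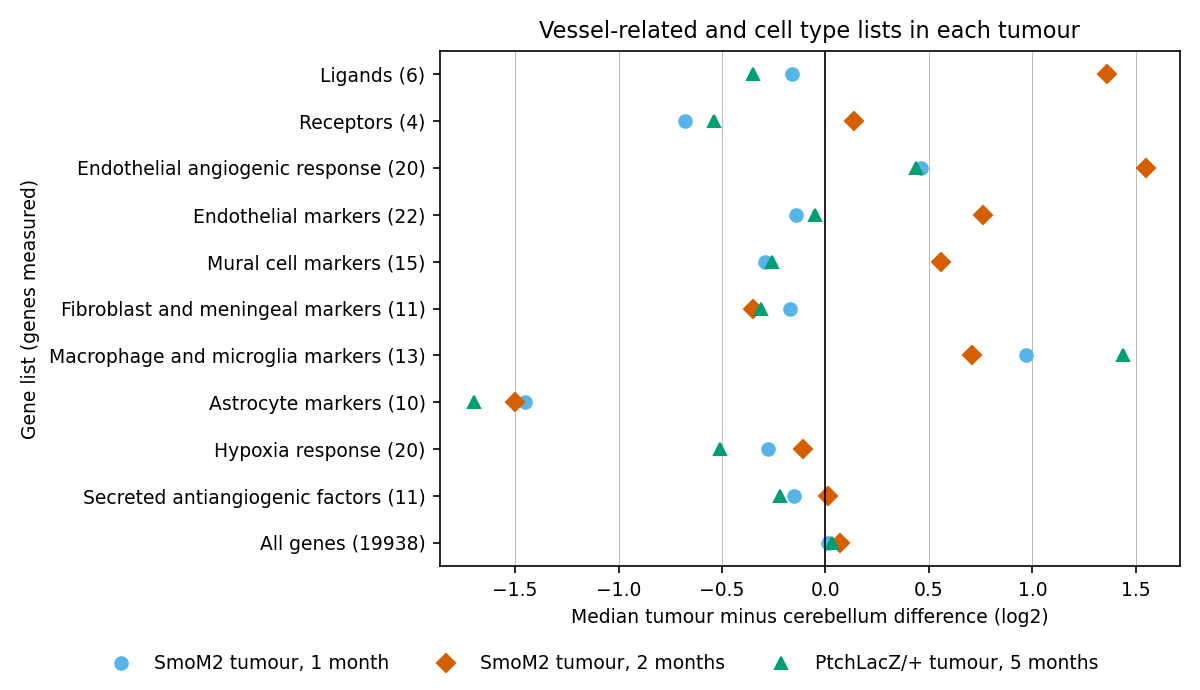
Median difference from the cerebellum (log2, horizontal axis) of the ligands, the receptors and gene lists of vessels and other cells (vertical axis, genes measured in brackets) for the SmoM2 tumours at 1 month (circle) and 2 months (diamond) and the PtchLacZ/+ tumour (triangle), 1 array each. The 2-month tumour lies right of the other tumours for the ligands (1.36), the receptors (0.14), the endothelial response list (1.55), endothelial (0.76) and mural markers (0.56) and the hypoxia list (-0.11), among others, and left of them for the macrophage (0.71) and fibroblast (-0.35) markers.

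Markers of the cells that make or carry these proteins gave the following counts in tumours against cerebellum. Of 22 endothelial markers, 0 rose and 1 fell, the drug efflux pump gene Abcb1a (-1.64 ± 0.17, limma adjusted p = 0.00677), and the list's median differences were -0.14, 0.76 and -0.05 for the 1-month SmoM2, 2-month SmoM2 and PtchLacZ/+ tumours. Without the 2-month tumour 2 rose and 3 fell. Of 15 mural cell markers, Cspg4 rose by 1.65 ± 0.17 (adjusted p = 0.00711), a gene also of oligodendrocyte precursors, and without the 2-month tumour 2 rose and 4 fell. Of 11 fibroblast and meningeal markers 2 rose (Pdgfra and Col3a1) and 2 fell, of 13 macrophage and microglia markers 6 rose (Lyz2 by 5.21 ± 0.48, adjusted p = 0.00576) and none fell, and of 3 red cell markers Alas2 fell by 0.96 ± 0.21 (adjusted p = 0.0422), a call lost in the 3-group fit and without the 1-month or the PtchLacZ/+ tumour. The labelled tissues matched their defining genes, since 8 of 10 granule progenitor and 7 of 7 proliferation markers rose and 8 of 10 mature granule neuron and 5 of 7 Purkinje cell markers fell. Of 7 choroid plexus markers none passed, although Ttr, singled out after its values were seen, stood at 4.50 in the 2-month tumour against 11.27 and 10.81 in the other tumours, and without the 2-month tumour 3 rose and 1 fell. Without the PtchLacZ/+ tumour 4 macrophage markers rose, 3 astrocyte markers fell, and 1 fibroblast marker rose and 0 fell. The part of these cell types in the members' values was not tested.

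Genes with the profile most like a member over the 4 arrays were named by the smallest root mean square difference of mean-centred log2 values, as a description over 4 points. For Tek, which had the largest fall, they were Ate1, Efnb2 and Kcnj11, each at 0.02 among 3971 candidate genes. In the cerebellum and the 1-month SmoM2, 2-month SmoM2 and PtchLacZ/+ tumours Ate1 stood at 10.34, 9.35, 9.16 and 9.38. Kcnj11 stood at 7.93, 6.91, 6.73 and 6.87 in the same order. Of all genes 9.30% were called lower in the tumours. Efnb2, the ephrin-B2 ligand gene of arterial endothelium, stood at 7.74 in the cerebellum and at 6.75, 6.62 and 6.79 in the 1-month SmoM2, 2-month SmoM2 and PtchLacZ/+ tumours (-1.02 ± 0.18, limma adjusted p = 0.0222). For Pgf, which had the largest mean rise, they were Cdkn2a, Cenpq and Dnph1, at 0.27 to 0.30. For Angpt2, added after its values were seen, they were Fgf5, Hmox1 and Wif1, at 0.45 to 0.50.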

How the data were processed

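Total RNA of 1 cerebellum and 3 medulloblastomas was measured on 4 arrays, grouped by the genotype and age in the labels. The authors deposited 1 table of log2 values, for which the submitters' processing notes name Affymetrix Expression Console. The sources used here do not say how probes were summarised or normalized, and the log2 scale was read from the range of values. Array medians over named genes lay within 0.09 of each other. The values were used unchanged, without detection calls. A level below the lower quartile over named genes was not taken as above background. Arrays have no depth, and precision is limited by their number.

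Gene symbols came from GEO's platform annotation, updated by Entrez identifier. For each of 19938 genes the probe set with the highest mean was used, and each member had 1 probe set. limma 3.58.1 (R 4.3.3, lmFit and eBayes, Benjamini-Hochberg adjustment over all genes, threshold 0.05) compared the tumours with the cerebellum (2 residual degrees of freedom) and the PtchLacZ/+ tumour with the SmoM2 pair (1). On simulated arrays of the first comparison it recovered 44 of 100 genes changed by 2 log2 units and 82 of 100 changed by 4. The simulations took the spread among the tumours, shuffled it over genes and changed only those genes. In the data 16.0% of genes were called, a larger share than was changed there, so recovery in the data can differ. Errors after ± are standard errors from limma. The labels do not say that samples are separate animals, and p-values cover no more than the spread among these arrays. The members and the 18 gene lists (214 genes measured) were chosen with earlier results of these data known. Named genes were the members, all family ligands and receptors, up to 3 passing genes per list and direction, and the nearest profiles, and the text marks those chosen after their values were seen. Alternatives were quantile normalization, median centring, a level filter, probe set means, other priors, a 3-group fit and leaving out each tumour. The sex-linked genes were added after seeing the data.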

Additional observations from a re-analysis of the deposited data

Results flagged for a closer look

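Angpt1 was above the cerebellum in both SmoM2 tumours, by 0.29 at 1 month and 1.25 at 2 months, and below it in the PtchLacZ/+ tumour, at -0.03. This opposite sign was not tested, and the PtchLacZ/+ value rests on 1 array whose distance from the cerebellum is small beside the spread of the tumours (SD 0.66, n = 3).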

How the results depend on the processing

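Of 10 members, 1 was lower in tumours than in the cerebellum at the main settings and 0 with only genes above the median level, which leaves out Tek, and 0 in the fit with 3 groups. Leaving out each tumour gave 0 to 5 lower and 0 to 1 higher. Over all genes the 3-group fit gave 777 higher and 1174 lower, and leaving out each tumour gave 628 to 2689 higher and 937 to 3321 lower, against 1336 and 1855. Apln reversed to -0.12 in the 3-group fit and ranged from -0.64 to 0.43 with a tumour left out, Tie1 from -0.06 to 0.49 and Kdr from -0.11 to 0.46. In the PtchLacZ/+ tumour against 1 SmoM2 tumour, Angpt2 ranged from -3.30 to 0.03, Pgf from -1.11 to 1.18, Kdr from -0.68 to 0.46 and Flt1 from -0.61 to 0.18. Relative to Pecam1, Cdh5, Cldn5 and Erg alone, Tie1 reversed from -0.02 to 0.22, and Tek was at -1.15 against -1.40. With the list mean and with those markers, Vegfa was at -0.79 and -0.74 against -0.99, and Flt1 at -1.12 and -1.07 against -1.32. In the 3-group fit 1 signal transduction gene rose and 2 fell, and 0 of the secreted factors that act on vessel growth rose and 1 fell. In that fit 1 gene of the other vessel systems rose and 3 fell, and 1 fibroblast marker rose and 1 fell. Members at least 1 log2 unit lower in the PtchLacZ/+ tumour numbered 1 after quantile normalization against 3. The cause of these changes was not tested. The Tek call held with quantile normalization, centring, probe set means and both other priors. No paired analysis was possible because the labels give no pairing and the cerebellum and PtchLacZ/+ groups hold 1 array each. No further depth limit applies beyond the 4 arrays.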

Other observations

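Other genes were, like Angpt2, highest in the 2-month SmoM2 tumour, and they are given as values with no test. The macrophage elastase gene Mmp12 stood at 9.36 there and between 5.62 and 5.99 in the other arrays. The scavenger receptor gene Cd36 stood at 6.61 against 3.94 to 3.98, the macrophage gene Cd5l at 7.67 against 4.03 to 4.85, and the haem oxygenase gene Hmox1 at 9.91 against 6.19 to 7.69. The secreted Wnt inhibitor gene Wif1 stood at 9.43 against 5.67 to 6.59, and the endothelial adhesion receptor gene Adgrl4 at 9.31 against 6.58 to 8.34. The levels of Cd36 and Cd5l outside that tumour were below the lower quartile of named genes and are not shown to be above background. Of the 13 macrophage and microglia markers 4 were highest in that tumour, beside 35.5% of all genes. Of the 13, 6 were above the PtchLacZ/+ tumour, beside 11810 of all 19938 genes. By at least 1 log2 unit 0 were above the 1-month tumour, beside 1.66% of all genes. The median 2-month minus 1-month difference of the markers was 0.18 (all genes 0.08). The 6 genes named singly were chosen after their values were seen, from the 12 genes with the largest 2-month minus 1-month difference.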
